A study of Rattus norvegicus with 16 samples.

Results

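The late state of the CA1 field was measured with 4 of the 16 arrays of this series: 2 of CA1 at T12h and 2 of CA1 at T0, chosen by the region and time in their titles. All 15866 probe sets other than the array's own controls were compared, and 10411 genes were stood for by the probe set with the highest mean level. The tissue was the rat organotypic hippocampal slice culture, a slice of brain kept alive in a dish with its neurons, glia and much of its wiring. T12h was read as 12 h into the time course and T0 as its start; the other arrays are CA1 at 30 min and 3 h and CA3 at all 4 times, 2 per group. The series title names oxidative stress. What agent and dose were used, whether T0 slices had met it, and the strain and age of the rats: none of this is stated in the sources used here. The replicates are called biological without a statement that they came from separate animals or cultures, so the p-values below measure the spread between these arrays, which may be technical.

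CA1 pyramidal neurons are known to die before CA3 neurons after ischaemia and many oxidative insults. Stressed neurons are known to transcribe immediate early genes and their targets, and to slow translation through the integrated stress response, in which the transcription factor ATF4 drives amino acid and redox genes. Slice cultures also hold astrocytes, microglia and dividing glia and progenitors, whose genes are measured in the same RNA.

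Across probe sets, the replicate arrays correlated with each other at 0.947 in CA1 T12h and 0.969 in CA1 T0. Bacillus control transcripts, spiked into RNA before labelling in the manufacturer's protocols, read a mean log2 of 5.16 and 4.36 on the T12h arrays, against 6.46 and 5.96 on the T0 arrays, so this signal moved with the comparison. The GAPDH 3' minus 5' signal, a measure of RNA quality and labelling, was 1.36 and 3.02 at T12h, against 2.08 and 3.08 at T0, and overlapped between the groups. The field label was checked against CA1 markers. *Pou3f1*, a POU transcription factor of CA1 neurons, read 5.38 and 6.21 in CA1 at T12h, against 3.58 and 3.79 in CA3 at T12h. At T0, however, it read 3.47 and 3.49 in CA1 and 3.53 and 3.63 in CA3, and *Mpped1* read 4.35 and 4.50 in CA1 and 5.34 and 5.60 in CA3, so these markers did not set CA1 above CA3 before the time course.

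Most of the genes past the threshold in CA1 at 12 h were lower than at T0, and 13 of those 20 stand on the lists of mitosis and DNA replication genes. These lists hold 30 and 28 of the 10411 genes. All lists were chosen with earlier results of these data known, so counts of their members are descriptions and no independent support. With limma and Benjamini-Hochberg adjustment over all probe sets, 33 probe sets passed an adjusted p of 0.05, 8 higher and 25 lower, which is 0.208% of those tested. Unadjusted p-values under 0.05 numbered 1787, against 793 expected by chance. Counted as genes, 8 rose (0.0768% of 10411) and 20 fell (0.192%), and the T12h and T0 arrays did not overlap for any of them. The call depended on few arrays: 0 to 6 probe sets passed when 1 of the 4 arrays was left out (0 without T0 replicate 2, 1 without T12h replicate 2, 3 without T0 replicate 1, 6 without T12h replicate 1). With the spike signal as a covariate 4 passed, 3 higher and 1 lower, and 3 of them were among the 33. The majority of falls was thus not seen in that setting. All 33 kept their direction in every setting that tested them. Same-numbered CA1 arrays deviated together from their group means for each of the 6 pairs of times (correlations of 0.21 to 0.66), so the replicate number was also fitted as a block. Over the 16 arrays 153 probe sets then passed (0.964%), 67 higher and 86 lower, which include all 33; over the 8 CA1 arrays alone 22 passed, 11 of them among the 33. The adjusted p of the 16-array fit with this block is given below where it changes a call. That fit also uses the CA3 arrays, which are not independent of the CA1 arrays. CA3 T0 did not deviate with the later CA3 groups (correlations of -0.24, -0.05 and 0.02).

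**Figure D1:**
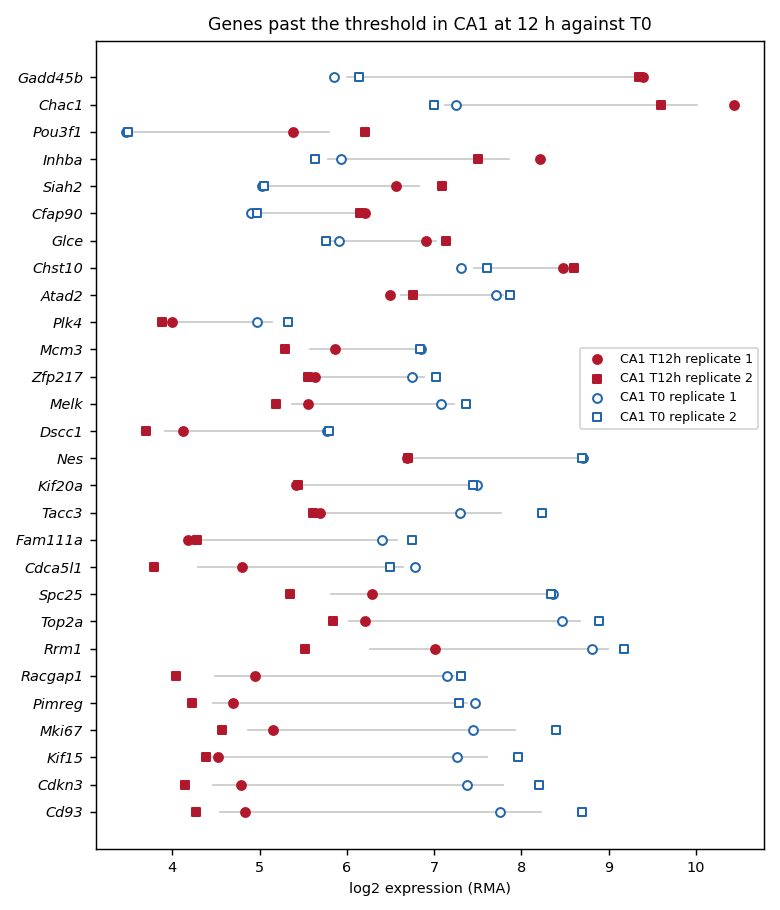
Log2 expression (horizontal axis) of the 28 genes that passed an adjusted p of 0.05 in CA1, 1 row per gene, with CA1 T12h arrays as filled red symbols and CA1 T0 arrays as open blue symbols; grey lines join the group means. The 8 genes at the top were higher on both T12h arrays than on both T0 arrays, and the other 20 were lower on both.

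Mitosis genes formed the largest group that fell. Of the 30 measured members of the mitosis list, 11 fell and 0 rose, beside 0.192% and 0.0768% of all genes. All 30 were lower on both T12h arrays than on both T0 arrays, against 22.6% of all genes. In the blocked fit 16 passed, beside 0.964% of all probe sets, and 6 passed with the block over the 8 CA1 arrays alone. Their median change was -1.65 on the log2 scale, against -0.04 for all genes. The median level of the members was 5.33 and 5.12 on the T12h arrays, against 7.03 and 7.53 on the T0 arrays. In these bulk samples, fewer dividing cells and less of each mRNA per cell cannot be told apart.

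*Kif15*, a kinesin motor of the spindle, read 4.53 and 4.39 at T12h, against 7.26 and 7.96 at T0, and fell by 3.15 ± 0.37 on the log2 scale (moderated standard error, as for all errors below; adjusted p = 0.014), that is, to a level 8.88-fold lower. *Mki67*, which encodes the proliferation marker Ki-67, read 5.16 and 4.57 at T12h, against 7.44 and 8.40 at T0, and fell by 3.06 ± 0.36 (adjusted p = 0.014). *Top2a*, the topoisomerase that untangles chromosomes, read 6.21 and 5.84 at T12h, against 8.46 and 8.89 at T0, and fell by 2.65 ± 0.31 (adjusted p = 0.014). For each of these the gap between the groups was larger than the spread within either. A second *Top2a* probe set, dim with a mean of 4.11, changed by -0.62 ± 0.24 and did not pass.

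*Cdkn3*, a phosphatase that acts on cyclin-dependent kinases, had the largest fall of the list, 3.33 ± 0.55 (adjusted p = 0.0492), with 4.78 and 4.14 at T12h, against 7.37 and 8.20 at T0. Genes of chromosome attachment and cell cleavage fell with it. *Spc25*, a subunit of the kinetochore's NDC80 complex, fell by 2.53 ± 0.32 (adjusted p = 0.0176). *Racgap1*, part of the centralspindlin complex of the cleaving cell, fell by 2.73 ± 0.41 (adjusted p = 0.0353). *Kif20a*, a kinesin of cytokinesis, read 5.41 and 5.44 at T12h, against 7.49 and 7.44 at T0, and fell by 2.04 ± 0.26 (adjusted p = 0.0176). The others that fell were *Pimreg* (change -2.91), *Tacc3* (-2.11), *Melk* (-1.85) and *Plk4* (-1.21), the last a kinase of centriole duplication. The smallest change named on the list was that of *Birc5*, survivin, at -0.53 ± 0.17, which did not pass (adjusted p = 0.256).

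Many mitotic genes are known to be controlled through a short promoter element called the cell cycle genes homology region, or CHR. The letters TTTGAA were searched on both strands from 250 bases before to 50 bases after the annotated start in RefSeq's promoter sequences (build GRCr8). They were present in 18 of the 26 mitosis genes with a promoter in the table (69.2%), against 11.7% of the 8630 measured genes with one and 18.1% of all 27457 promoters. Of the 20 genes that fell, 15 had a promoter in the table and 8 of those held the letters (53.3%), while 1 of 26 DNA replication genes did (3.85%). A match describes the sequence and is not a measured binding site. Stretches of 110 bases upstream of the start are shown for the 4 called mitosis genes with the smallest p among those with a match in the nearest 150 bases, with the matches in capitals (TTCAAA is TTTGAA on the other strand).

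*Top2a*, chr10:84473094-84473203, minus strand: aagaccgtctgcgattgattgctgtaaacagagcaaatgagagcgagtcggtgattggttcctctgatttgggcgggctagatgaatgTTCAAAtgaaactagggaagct
*Kif15*, chr8:131479294-131479403, plus strand: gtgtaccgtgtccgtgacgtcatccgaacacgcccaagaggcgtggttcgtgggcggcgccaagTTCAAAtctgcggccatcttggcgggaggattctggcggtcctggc
*Mki67*, chr1:199952656-199952765, minus strand: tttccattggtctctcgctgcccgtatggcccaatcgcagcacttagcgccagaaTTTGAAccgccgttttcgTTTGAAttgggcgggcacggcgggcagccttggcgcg
*Spc25*, chr3:74396719-74396828, minus strand: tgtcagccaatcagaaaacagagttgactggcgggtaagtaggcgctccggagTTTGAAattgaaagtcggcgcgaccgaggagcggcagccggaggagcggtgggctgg

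The *Mki67* stretch lies from 172 to 63 bases before the start and holds 2 matches, and the other 3 end at the start and hold 1 each.

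DNA replication genes were also lower at 12 h. Of 28 measured, 2 fell and 0 rose, beside 0.192% and 0.0768% of all genes. On both T12h arrays 24 were lower, against 22.6% of all genes, with a median change of -0.99. *Rrm1*, the large subunit of ribonucleotide reductase, which makes DNA precursors, read 7.01 and 5.52 at T12h, against 8.81 and 9.18 at T0, and fell by 2.73 ± 0.44 (adjusted p = 0.0469). *Mcm3*, a subunit of the helicase that opens replication origins, read 5.87 and 5.29 at T12h, against 6.85 and 6.84 at T0, and fell by 1.27 ± 0.21 (adjusted p = 0.0492). *Mcm4* changed by -1.15 ± 0.24 and *Ccne2*, cyclin E2, by -1.18 ± 0.25, without passing (adjusted p = 0.117 and 0.114). With the replicate block 4 members passed, these among them (adjusted p = 0.0348 for *Mcm4* and 0.0403 for *Ccne2*). The groups did not overlap for either.

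Of the 20 genes that fell, 7 stand on neither list, and their roles vary. *Nes*, the intermediate filament nestin of neural progenitors and reactive astrocytes, read 6.69 and 6.71 at T12h, against 8.71 and 8.70 at T0, and fell by 2.01 ± 0.23 (adjusted p = 0.014). The replicates of each group lay close together, far closer than the groups did. *Dscc1*, which helps load the replication clamp and join sister chromatids, fell by 1.87 ± 0.24 (adjusted p = 0.0192). *Fam111a*, a protease known to act at replication forks, fell by 2.35 ± 0.34 (adjusted p = 0.0304), and *Cdca5l1* by 2.35 ± 0.33 (adjusted p = 0.0297). Named after their values were seen, *Atad2*, a chromatin ATPase (-1.16), and *Zfp217*, a zinc finger repressor (-1.29), also fell. *Snap23*, a membrane fusion protein (-1.43), and *Cdk5rap2*, a centrosome protein (-1.20), passed on a probe set that is not the brightest of the gene, and 3 called probe sets, all lower, have no gene in the annotation.

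*Cd93*, a receptor of endothelial and myeloid cells that stood on the microglia and macrophage list, had the largest fall of all genes past the threshold. It read 4.83 and 4.27 at T12h, against 7.75 and 8.69 at T0, and fell by 3.67 ± 0.55 (adjusted p = 0.0382). Its other probe set, with a mean of 4.16, changed by -0.03 ± 0.20, so the call rests on 1 probe set. Of the 20 measured genes of that list, *Cd93* alone passed, beside 0.192% of all genes that fell, and the median change was -1.93. On both T12h arrays 17 were lower and 0 were higher, against 22.6% and 20.4% of all genes. *Lyz2*, lysozyme of phagocytes, read 11.08 and 10.17 at T12h, against 12.48 and 12.99 at T0, a change of -2.12 ± 0.44 (adjusted p = 0.114). *C1qc*, a chain of the complement starter C1q, read 8.64 and 7.23 at T12h, against 9.69 and 10.93 at T0, a change of -2.38 ± 0.69 (adjusted p = 0.224). For both genes the groups did not overlap. In the blocked fit 3 members passed, *Lyz2* among them (adjusted p = 0.0403), beside 0.964% of all probe sets. Over the 8 CA1 arrays alone the block left 1 member past the threshold. Without T12h replicate 2, which had the lowest spike signal of the 4 arrays, the median of the list was -1.39, and with the spike signal as a covariate it was -1.07.

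The genes that rose were led by *Gadd45b*, a stress and activity gene known to take part in DNA demethylation and p38 signalling. It read 9.39 and 9.35 at T12h, against 5.86 and 6.14 at T0, a rise of 3.37 ± 0.41 (adjusted p = 0.014), or 10.4-fold. Its relative *Gadd45g* read 9.28 and 9.89 at T12h, against 6.20 and 6.55 at T0, a change of 3.21 ± 0.55 that did not pass (adjusted p = 0.0597) except with the replicate block (adjusted p = 0.0162). *Gadd45a*, the member known as a p53 target, changed by 1.18 ± 0.89 (adjusted p = 0.732). The groups did not overlap for any of the 3.

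*Chac1*, a known ATF4 target whose product breaks down glutathione, had the smallest p of all genes. It read 10.44 and 9.60 at T12h, against 7.25 and 7.0 at T0, and rose by 2.89 ± 0.28 (adjusted p = 0.0106), or 7.43-fold. Of the 28 measured genes of the integrated stress response list, it alone passed, beside 0.0768% of all genes that rose. On both T12h arrays 19 were higher and 1 was lower, against 20.4% and 22.6% of all genes. The median change was 0.58. *Trib3*, a pseudokinase target of the pathway, read 7.25 and 7.74 at T12h, against 6.12 and 6.06 at T0, a change of 1.40 ± 0.32 (adjusted p = 0.144). *Atf4* itself changed by 1.20 ± 0.29 (adjusted p = 0.17) and *Slc7a5*, a large amino acid transporter, by 0.92 ± 0.21 (adjusted p = 0.133). The 3 did not pass but were higher on both T12h arrays.

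The C/EBP-ATF response element is the site through which ATF4 is known to act. Its core TGATGNAA was searched on both strands in the same windows. It was present in 5 of the 26 listed genes with a promoter (19.2%), against 2.17% of measured genes and 3.82% of all promoters. The list was written as genes of this response, so that share is a description. The AP-1 site TGANTCA was also present in 5 of the 26, against 5.47% of measured genes. The 5 genes with TGATGNAA were *Chac1*, *Trib3*, *Aars1*, *Nars1* and *Nupr1*. The stretches around the match are shown for *Chac1*, the called gene, and *Trib3*, with the match in capitals on its other strand.

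*Chac1*, chr3:126795909-126796018, plus strand: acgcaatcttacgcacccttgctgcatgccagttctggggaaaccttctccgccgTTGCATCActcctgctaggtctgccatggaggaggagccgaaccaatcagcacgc
*Trib3*, chr3:161275534-161275643, minus strand: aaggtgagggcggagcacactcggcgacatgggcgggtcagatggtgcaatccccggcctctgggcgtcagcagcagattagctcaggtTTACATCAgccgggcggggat

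The match begins 167 bases before the start in *Chac1* and 21 bases before it in *Trib3*.

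Chaperones of the endoplasmic reticulum, whose stress is also known to trigger the integrated stress response, had 0 members past the threshold, which 0.269% of all genes passed. Of 25 measured, 1 was higher on both T12h arrays and 11 were lower on both, against 20.4% and 22.6% of all genes, with a median change of -0.33, or -0.61 to -0.32 with 1 of the 4 arrays left out. *Dnajc3*, a co-chaperone and kinase inhibitor, read 6.68 and 5.79 at T12h, against 7.77 and 7.70 at T0 (change -1.50 ± 0.37, adjusted p = 0.17). *Sdf2l1*, a chaperone partner, read 8.17 and 7.52 at T12h, against 9.51 and 9.17 at T0 (change -1.49 ± 0.45, adjusted p = 0.241). It alone passed with the replicate block (adjusted p = 0.0284), and 0 members passed with the block over the 8 CA1 arrays alone. The one member higher on both arrays was *Herpud1*, of protein degradation at this membrane, at 9.96 and 9.55 at T12h, against 8.28 and 7.79 at T0 (change 1.72 ± 0.37, adjusted p = 0.121).

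The other risers have varied roles. *Inhba*, the activin A subunit known as an activity-induced protective factor in hippocampal neurons, read 8.22 and 7.50 at T12h, against 5.93 and 5.64 at T0, and rose by 2.07 ± 0.31 (adjusted p = 0.0353). *Siah2*, a ubiquitin ligase of the low-oxygen response, read 6.56 and 7.09 at T12h, against 5.03 and 5.05 at T0, and rose by 1.78 ± 0.28 (adjusted p = 0.044). *Pou3f1* rose by 2.31 ± 0.37 (adjusted p = 0.0469). *Glce* and *Chst10*, enzymes that modify sugar chains of proteoglycans and glycoproteins, rose by 1.18 ± 0.19 and 1.08 ± 0.18 (adjusted p = 0.0469 and 0.0492). *Cfap90*, a gene named for cilia and flagella, read 6.21 and 6.16 at T12h, against 4.91 and 4.97 at T0, and rose by 1.24 ± 0.21 (adjusted p = 0.0492).

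**Figure D2:**
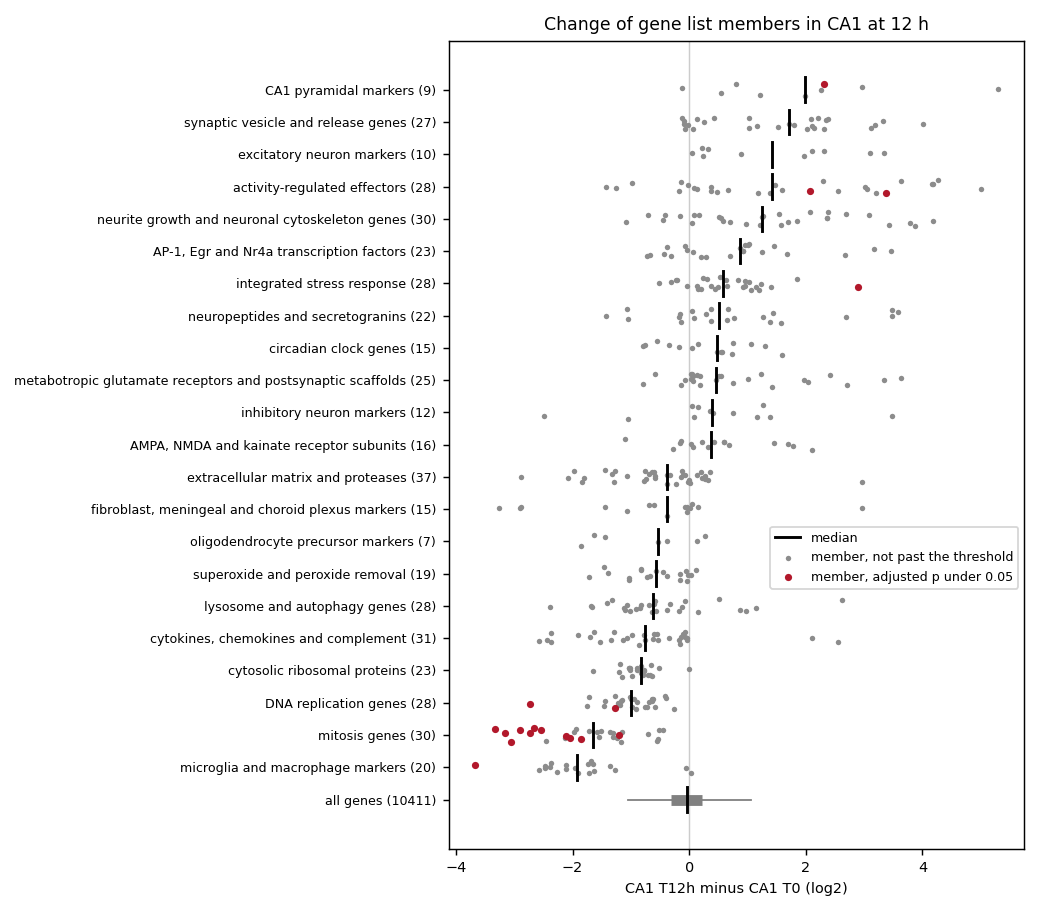
Log2 change in CA1, T12h minus T0 (horizontal axis), of each measured member of 22 gene lists with 7 or more members, those with the highest and lowest medians; numbers of members stand in brackets, red points passed an adjusted p of 0.05, and black bars are medians. For all genes the thick bar spans the 25th to 75th percentile and the thin line the 5th to 95th. The mitosis, DNA replication and microglia lists lie below 0 nearly throughout, and the CA1, synaptic vesicle and activity lists lie mostly above it.

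Genes switched on by neuronal activity were mostly higher at 12 h, with wide spreads. Of 28 measured activity-regulated effectors, 2 rose (*Gadd45b* and *Inhba*), beside 0.0768% of all genes. On both T12h arrays 17 were higher and 4 were lower, against 20.4% and 22.6% of all genes. The median change was 1.43, or 0.68 with the spike signal as a covariate. *Rgs4*, a brake on G protein signals, read 8.74 and 10.14 at T12h, against 4.44 and 4.44 at T0 (change 5.0 ± 1.33, adjusted p = 0.189). *Bdnf*, the neurotrophin, read 7.95 and 8.33 at T12h, against 3.95 and 3.80 at T0 (change 4.27 ± 1.32, adjusted p = 0.253). Both differed far more between the groups than within them; the standard error is pooled over all 8 groups, and at 30 min *Bdnf* read 5.78 and 7.14 in CA1 and 3.87 and 8.52 in CA3. *Ptgs2*, cyclooxygenase 2, read 6.13 and 5.77 at T12h, against 3.50 and 3.29 at T0 (change 2.55 ± 0.47, adjusted p = 0.0735). *Nfil3*, a transcriptional repressor, changed by 1.59 ± 0.29 (adjusted p = 0.0759). With the replicate block 8 members passed, among them *Rgs4* (adjusted p = 0.0454), *Ptgs2* (adjusted p = 0.0369) and *Nfil3* (adjusted p = 0.0419), beside 0.964% of all probe sets. The block over the 8 CA1 arrays alone left 1 member past the threshold.

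Immediate early transcription factors, the first genes of that response, had 0 members past the threshold at 12 h. In a list of this size that cannot be told from the 0.269% of all genes. Of 23 AP-1, Egr and Nr4a factors, 11 were higher on both T12h arrays and 2 were lower on both, against 20.4% and 22.6% of all genes. The median change was 0.87 (0.24 without T12h replicate 2, 0.22 without T0 replicate 1 and 0.33 with the spike covariate). *Fosb* read 8.33 and 8.98 at T12h, against 5.53 and 5.46 at T0 (change 3.16 ± 0.74, adjusted p = 0.157) and was the 1 factor that passed with the replicate block (adjusted p = 0.0284). *Nr4a3* read 7.13 and 8.05 at T12h, against 4.02 and 4.23 at T0 (change 3.46 ± 0.93, adjusted p = 0.192). *Jun* changed by 1.03 ± 0.29 (adjusted p = 0.208). All 3 were higher on both T12h arrays. The negative-feedback gene *Zfp36*, an mRNA decay factor, changed by 2.03 at 30 min and by 0.82 ± 0.23 at 12 h.

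Genes of defence against oxidants had 0 members past the threshold, against 0.269% of all genes, with and without the replicate block. Of 25 targets of NRF2, the oxidant-sensing transcription factor, 5 were higher on both T12h arrays and 4 were lower on both, shares near the 20.4% and 22.6% of all genes. Their median change was -0.02, with -0.36 without T12h replicate 1 and 0.20 without T12h replicate 2. *Srxn1*, sulfiredoxin, read 9.44 and 9.40 at T12h, against 7.41 and 8.56 at T0 (change 1.43 ± 0.45, adjusted p = 0.261). *Sqstm1*, the p62 adaptor of autophagy, changed by 1.15 ± 0.37 (adjusted p = 0.264), and *Pgd*, of the pentose phosphate path, by -0.86 ± 0.38 (adjusted p = 0.432). Of 19 enzymes that remove superoxide and peroxide, 0 passed, 8 were lower on both T12h arrays and 1 was higher on both; the median was -0.57, or -0.07 without T12h replicate 2, -1.01 without T12h replicate 1 and -0.33 with the spike covariate. *Gpx3*, a secreted glutathione peroxidase, read 7.38 and 6.42 at T12h, against 8.25 and 8.33 at T0 (change -1.39 ± 0.56, adjusted p = 0.385).

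Heat shock, cell death and p53 lists had 0 members past the threshold, a share that cannot be told from the 0.269% of all genes in lists of this size. *Hspa1a*, the inducible Hsp70, read 6.14 and 9.50 at T12h, against 5.27 and 5.40 at T0 (change 2.49 ± 1.13, adjusted p = 0.448), so the 2 T12h arrays differed more from each other than the lower of them did from T0. The median change was 0.23 over 18 heat shock genes, 0.05 to 0.41 with either T12h array left out, and 0.12 with the spike covariate. Of 36 cell death genes, 4 were higher on both T12h arrays and 13 were lower on both, against 20.4% and 22.6% of all genes, with a median of -0.24 (-0.12 without T0 replicate 1 and -0.08 with the spike covariate). *Hrk*, a BH3-only trigger of neuronal apoptosis, read 6.20 and 6.63 at T12h, against 5.66 and 5.37 at T0 (change 0.90 ± 0.31, adjusted p = 0.285). *Aifm1*, the mitochondrial apoptosis-inducing factor, read 7.24 and 7.39 at T12h, against 7.95 and 8.21 at T0 (change -0.76 ± 0.22, adjusted p = 0.213). The 12 p53 targets had a median change of 0.04 (0.43 without T0 replicate 2, -0.06 without T0 replicate 1). Among them *Plk2*, also an activity gene, read 9.87 and 10.20 at T12h, against 4.56 and 7.17 at T0. It passed with the replicate block (adjusted p = 0.0369), and 0 of the 12 passed with the block over the 8 CA1 arrays alone.

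Markers of CA1 and of excitatory neurons mostly read higher at 12 h than at T0, while the medians of the CA3, CA2, granule cell and inhibitory lists lay between -0.31 and 0.39, and *Pou3f1* was the 1 member of these lists that passed. All CA1 markers but *Spink8* (named after its value was seen) lay above T0. Of 9 measured, 1 rose (*Pou3f1*), beside 0.0768% of all genes. On both T12h arrays 8 were higher and 1 was lower, and the median change was 1.99. *Mpped1*, a metallophosphoesterase gene of CA1 neurons, read 10.23 and 9.21 at T12h, against 4.35 and 4.50 at T0 (change 5.30 ± 1.27, adjusted p = 0.164, or adjusted p = 0.0379 with the replicate block). At 30 min its CA1 arrays read 5.64 and 9.26, so replicates of that group lay far apart too. The block over the 8 CA1 arrays alone left 0 CA1 markers past the threshold. *Dcn*, the proteoglycan decorin, listed as a CA1 marker and also as a meningeal one, read 7.79 and 6.91 at T12h, against 4.47 and 4.31 at T0 (change 2.96 ± 0.60, adjusted p = 0.107). Of 8 measured CA3 markers, 5 were also higher on both T12h arrays and 0 were lower on both. Over all genes the shares were 20.4% and 22.6%, for comparison with the CA1 list too. The changes of the CA3 markers ran from -0.20 to 3.31 (*Nnat*, adjusted p = 0.31 in limma), with a median of 0.34.

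Of 7 CA2 markers, 3 were higher on both T12h arrays and 1 was lower on both, with a median change of 0.14 (0.33 without T12h replicate 2). Over all genes 20.4% were higher on both and 22.6% lower on both, the shares to set beside each count of this paragraph. *Pcp4*, a calmodulin-binding protein of CA2 neurons, changed by 2.65 ± 0.56 (adjusted p = 0.117), but *Amigo2*, an adhesion protein of CA2 neurons, by -0.80 ± 0.32 (adjusted p = 0.37). Of the 7, 1 passed with the replicate block, and 0 with the block over the 8 CA1 arrays alone. Of 7 dentate granule cell markers, 0 were higher and 0 lower on both T12h arrays, with a median of -0.31 (-0.09 without T0 replicate 2). *Calb1*, calbindin of granule cells, read 8.86 and 6.19 at T12h, against 11.14 and 8.45 at T0, with overlap. Of 12 inhibitory neuron markers, 5 were higher on both T12h arrays and 2 were lower on both; the median was 0.39, or 0.17 without T12h replicate 2 and -0.01 with the spike covariate. *Cck*, cholecystokinin, a peptide of interneurons that pyramidal cells also make, read 10.65 and 9.44 at T12h, against 6.67 and 6.47 at T0 (change 3.48 ± 0.67, adjusted p = 0.09). *Reln*, the guidance protein of Cajal-Retzius cells and interneurons, had the lowest change of the list, -2.50 ± 0.77 (adjusted p = 0.251). With the replicate block both passed, in opposite directions (adjusted p = 0.0436 for *Cck* and 0.0162 for *Reln*). The block over the 8 CA1 arrays alone left 1 member of this list past the threshold, which fell.

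Excitatory, synaptic vesicle and neurite growth genes mostly read higher, with 0 past the threshold. Of 10 excitatory neuron markers, 7 were higher on both T12h arrays and 0 were lower, against 20.4% and 22.6% of all genes, with a median change of 1.43 (0.85 without T12h replicate 2, and 0.95 with the spike signal as a covariate). Of 27 synaptic vesicle genes, 20 were higher on both and 0 lower, with a median of 1.71, or 0.71 with the spike covariate. *Vamp2*, synaptobrevin, read 8.81 and 9.31 at T12h, against 7.04 and 6.39 at T0 (change 2.34 ± 0.80, adjusted p = 0.291). Of 30 neurite growth genes, 21 were higher on both and 4 lower, with a median of 1.25. These medians rest on the brightest probe set of each gene. With the mean over all probe sets of a gene they were 0.83 (excitatory), 1.07 (synaptic vesicle) and 0.96 (neurite growth). *Stmn2*, a microtubule regulator of growing axons, read 10.78 and 9.65 at T12h, against 6.92 and 5.76 at T0 (change 3.88 ± 0.82, adjusted p = 0.117). With the replicate block 1 neurite growth gene passed and 0 of the other 2 lists. These genes moved opposite to the microglia markers, whose median level was 7.52 and 6.14 at T12h, against 8.37 and 8.99 at T0; the part of a shift between cell types in either was not tested.

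Receptors and channels differed less. Of 16 AMPA, NMDA and kainate receptor subunits, 9 were higher on both T12h arrays and 1 lower, against 20.4% and 22.6% of all genes. Their median change was 0.37. *Grin1*, the obligatory NMDA receptor subunit, read 7.44 and 8.35 at T12h, against 6.41 and 5.80 at T0 (change 1.79 ± 0.73, adjusted p = 0.385). *Gabra5*, a GABA-A subunit of hippocampal pyramidal cells, read 7.51 and 6.87 at T12h, against 4.63 and 4.35 at T0 (change 2.70 ± 0.87, adjusted p = 0.263). Of 40 potassium channel genes, 13 were higher on both and 2 lower, beside the same shares of all genes, with a median of 0.13. The sign of this median turned without T12h replicate 2 (-0.09). *Kcnd2*, a channel of dendritic A-type current, changed by 1.87 ± 0.58 (adjusted p = 0.251). *Kcnk2*, a leak channel, read 4.16 and 5.05 at T12h, against 3.45 and 3.90 at T0 (change 0.93 ± 0.37, adjusted p = 0.373).

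Astrocyte, oligodendrocyte, extracellular matrix, ribosomal protein and lysosome lists had 0 members past the threshold, with and without the replicate block. Lists of this size cannot be told in this from all genes, of which 0.269% passed. With the block 0.964% of all probe sets passed. The median change was -0.33 for 15 astrocyte markers, turning to 0.12 without T12h replicate 2 and 0.06 without T0 replicate 1, and -0.24 for 10 oligodendrocyte markers (-0.13 without T12h replicate 2 and -0.92 with the spike covariate). *Fn1*, fibronectin, read 8.44 and 6.35 at T12h, against 10.27 and 10.28 at T0 (change -2.88 ± 0.61, adjusted p = 0.117). *Vcan*, the proteoglycan versican, read 8.39 and 6.46 at T12h, against 9.64 and 9.36 at T0 (change -2.08 ± 0.62, adjusted p = 0.241). Both were lower on both T12h arrays, and *Vcan*, with 5 probe sets, was read from the brightest. Of 37 extracellular matrix genes, 14 were lower on both and 1 was higher on both, against 22.6% and 20.4% of all genes. Their median was -0.39, or -0.07 with the spike covariate, and their highest change was 2.96. Of 23 cytosolic ribosomal protein genes, 22 were lower on both T12h arrays, against 22.6% of all genes, with a median of -0.83. This median was -0.32 without T12h replicate 2, -1.39 without T12h replicate 1 and -0.47 after cyclic loess scaling. Of 28 lysosome and autophagy genes, 14 were lower on both and 5 higher, against 22.6% and 20.4% of all genes. Their median was -0.62, or -0.22 without T12h replicate 2. Among them *Gabarapl1*, of autophagosome formation, read 9.41 and 9.70 at T12h, against 7.07 and 6.79 at T0 (change 2.63 ± 0.76, adjusted p = 0.225).

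The genes that passed at 12 h differed in when they left their T0 level. These comparisons share the T0 arrays, so their values are set side by side without a test. In CA1 *Mki67* read 7.44 and 8.40 at T0, 5.26 and 5.69 at 30 min, 5.31 and 5.48 at 3 h, and 5.16 and 4.57 at 12 h. By group means, all 20 genes that fell were also below T0 at 30 min and 3 h. The median change of the mitosis list was -1.46 at 30 min, -1.32 at 3 h and -1.65 at 12 h. Of the 8 risers, 7 had group means above T0 at 30 min and 3 h too, some with arrays that overlapped T0. *Pou3f1* read 3.27 and 3.99 at 3 h, against 3.47 and 3.49 at T0. *Siah2* read 4.97 and 5.61 at 30 min, against 5.03 and 5.05 at T0. *Gadd45b* read 5.86 and 6.14 at T0, 8.27 and 7.31 at 30 min, 7.81 and 8.55 at 3 h, and 9.39 and 9.35 at 12 h. *Chac1* changed by 1.25 at 30 min, 1.27 at 3 h and 2.89 at 12 h. *Inhba* stayed nearer its T0 level at first: it read 5.93 and 5.64 at T0, 6.0 and 6.12 at 30 min, 6.17 and 6.96 at 3 h, and 8.22 and 7.50 at 12 h. *Glce* read 5.91 and 5.76 at T0, 5.95 and 6.02 at 30 min, 5.72 and 5.31 at 3 h, and 6.91 and 7.13 at 12 h. It was the one riser whose mean was not above T0 at both earlier times. The microglia list had a median change of -0.40 at 30 min, -0.49 at 3 h and -1.93 at 12 h, although *Cd93* itself was already at 4.55 and 4.39 at 30 min.

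**Figure D3:**
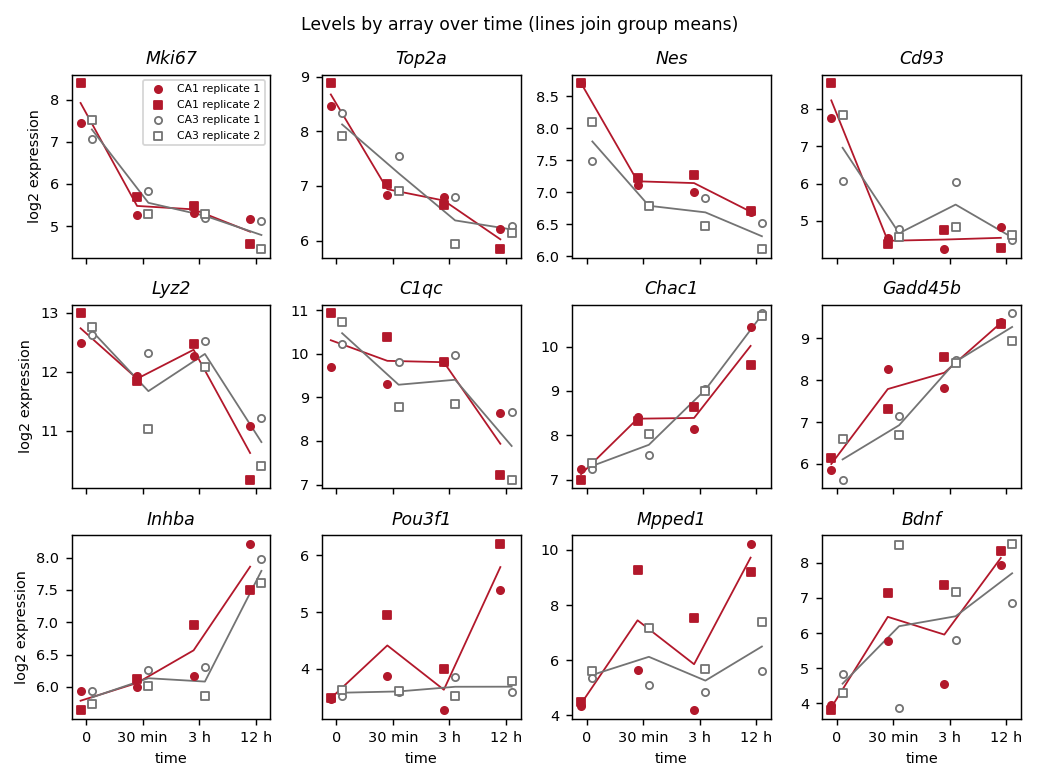
Log2 expression (vertical axes) of 12 genes at T0, 30 min, 3 h and 12 h, with CA1 arrays as filled red symbols, CA3 arrays as open grey symbols and lines through the group means. *Mki67*, *Top2a*, *Nes* and *Cd93* are lower from 30 min on, *Lyz2* and *C1qc* are lowest at 12 h, and *Chac1*, *Gadd45b* and *Inhba* are highest at 12 h in both fields. *Pou3f1* and *Mpped1* have their highest group means in CA1 at 12 h, but at T0 neither lies above CA3.

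The genes past the threshold in CA1 mostly had the same direction in CA3. Of the 28 genes past the threshold in CA1, 27 changed in the same direction in CA3 at 12 h, and 26 of them did so without overlap of the CA3 T12h and T0 arrays, which 19.4% of all genes did upward and 24.3% downward. Same-numbered CA1 and CA3 arrays of one time deviated together (correlations of 0.57 to 0.67), so the fields are not independent samples. In CA3 itself 1 probe set passed (0.0063% of those tested, with 1099 at an unadjusted p under 0.05), that of *Chac1*, which read 10.75 and 10.68 in CA3 at T12h, against 7.25 and 7.37 at T0 (3.41 ± 0.28, adjusted p = 0.00213). For the difference between the CA1 and CA3 changes, tested as an interaction in limma, 0 probe sets passed (0%) and 71 had an unadjusted p under 0.05. With same-numbered CA1 and CA3 arrays treated as pairs the count was also 0, with 371 at an unadjusted p under 0.05. A count of 0 with 2 arrays per group does not show that the fields responded alike.

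The genes with the smallest p for this difference are therefore given as descriptions. *Cfap90*, the exception among the risers, read 6.21 and 6.16 in CA1 at T12h, against 4.91 and 4.97 at T0, but 4.80 and 4.92 in CA3 at T12h, against 5.16 and 5.61 at T0 (difference of changes 1.77 ± 0.29). *Pou3f1* was level in CA3, with 3.58 and 3.79 at T12h, against 3.53 and 3.63 at T0 (difference 2.21 ± 0.52). *Dcn* read 4.16 and 5.46 in CA3 at T12h, against 4.74 and 5.66 at T0 (difference 3.36 ± 0.85). For these 3 the CA1 change was the higher one, as it was for *C7h12orf75* (difference 1.13 ± 0.31). *Lynx1*, a modulator of nicotinic receptors, read 5.51 and 5.20 in CA1 at T12h, against 5.13 and 5.06 at T0, and 6.56 and 6.14 in CA3 at T12h, against 5.15 and 4.73 at T0 (difference -1.16 ± 0.28). *Fnip2*, a folliculin partner in nutrient sensing, likewise changed more in CA3, with a difference of -1.25 ± 0.34 and a CA1 change of 0.06 ± 0.24.

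**Figure D4:**
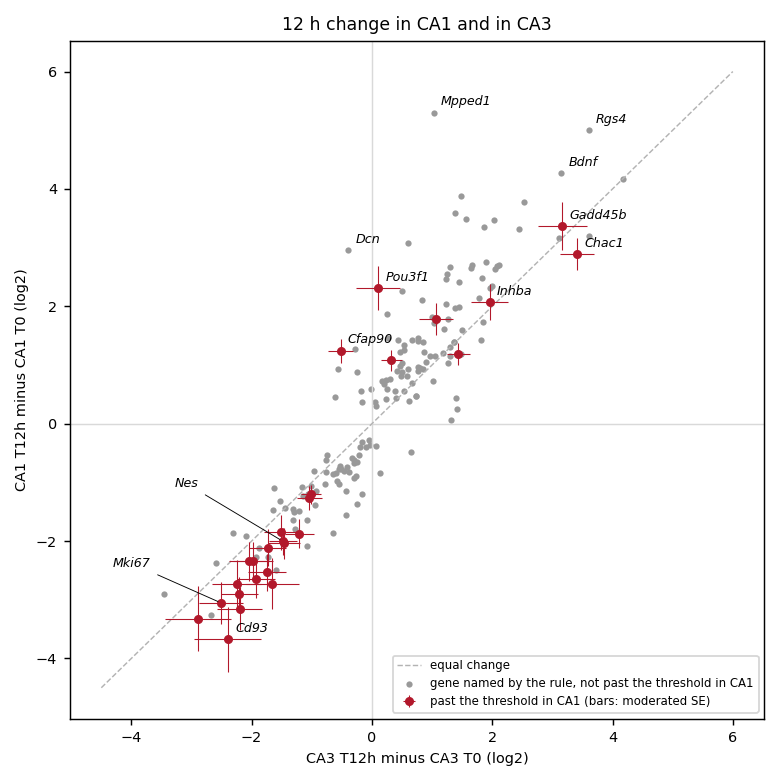
Log2 change at 12 h in CA1 (vertical axis) against that in CA3 (horizontal axis); red points with moderated standard errors are genes past the threshold in CA1, grey points are the other genes chosen by the naming rule, and the dashed line marks equal change. Most red points lie near the line, with *Cfap90* and *Pou3f1* above it near a CA3 change of 0 or less.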

How the data were processed

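The authors deposited log2 values from RMA, per the submitters' processing notes, with 1 value for each probe set on each array; the sources used here state no version. Per the labels' protocols the RNA was labelled over 2 cycles of amplification. RMA equalises the arrays, so changes are measured against the rest of the array and a change in total mRNA cannot be seen. The number of arrays limits the precision.

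The 57 control probe sets were left out, which leaves 15866 to test. Of these, 12783 have 1 gene in the platform annotation, 312 have several and 2771 have none; 12748 matched the RefSeq gene table (GRCr8, used for names only), with 0 symbols changed. Groups were taken from the sample titles. limma 3.58.1 under R 4.3.3 fitted 8 group means over 16 arrays with no covariate, 8 residual degrees of freedom and a prior worth 2.55; the fit was tested on simulated data. The p-values of a contrast were adjusted by Benjamini-Hochberg over its 15866 probe sets. Errors after ± are moderated standard errors.

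Named genes were the 15 called genes with the largest rise and the 15 with the largest fall whose arrays did not overlap, the 4 members of each of 45 lists with the smallest p and any called member, and, since none was called, the 6 genes with the smallest p for the CA1 minus CA3 difference: 189 genes, of which 74 are described. The members and lists were chosen with earlier results of these data known.

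To see whether replicate numbers pair samples, deviations of same-numbered arrays from their group means were correlated. The values were 0.21 to 0.66 over the 6 pairs of CA1 times (0.21 between CA1 T12h and CA1 T0), and 0.57 to 0.67 between CA1 and CA3 of the same time, so CA1 arrays and the fields were read as paired. CA3 T0 deviated from this, at -0.24 with CA3 T30m. The meaning of the numbers is not stated in the sources used here. The fit without the block was kept as the main one, and the block over the 8 CA1 arrays alone was chosen after seeing the data.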

Additional observations from a re-analysis of the deposited data

Results flagged for a closer look

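Among the 74 described genes, *Cfap90* and *Kcnk2* were singled out. Their T12h and T0 arrays did not overlap in either field and lay in opposite order in CA1 and CA3. *Cyp51*, named by the rule but outside those 74, also met this, with a difference of changes of -0.45. The share of all genes that do so was not counted, so the pattern is not shown to be particular to these genes. The CA1 change minus the CA3 change was 1.77 for *Cfap90* and 1.5 for *Kcnk2*. For *Kcnk2* the CA3 arrays read 3.68 and 3.74 at T12h, against 4.30 and 4.26 at T0. The difference itself was tested as an interaction with limma: the unadjusted p was 9.9e-05 for *Cfap90* and 0.015 for *Kcnk2*, and neither passed after adjustment over all probe sets. The cause was not tested.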

How the results depend on the processing

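The count of 33 probe sets in CA1 depended on the processing, while all of them that were tested kept their direction in each setting. It was 7 with the 8 CA1 arrays alone, 0 with the 4 arrays alone (2095 at an unadjusted p under 0.05), 11 among probe sets above the median mean level, 4 with the spike signal as a covariate, 0 without the low-spike arrays (914 unadjusted), and 69 at an adjusted p under 0.1. It was 512 with the GAPDH 3' minus 5' signal as a covariate. With the replicate block it was 153 (67 higher, 86 lower), which include all 33; the replicate block changed no call of the described genes other than those given with them. With the block over the 8 CA1 arrays alone, chosen after seeing the data, the count was 22 (11 of the 33). Leaving out 1 of the 16 arrays gave 0 to 35. Random pair block, cyclic loess, quantile, low-level filter, trend, robust prior and array weights gave 22 to 33. For the CA1 minus CA3 difference the count was 0 in each setting but 1, leaving out 1 array gave 0 to 1, and the replicate block gave 0. The called genes kept their direction throughout, with 379 of 789 values not past the threshold. Of the other named genes, *Gadd45a* turned to -0.20 with the spike covariate, and *Fnip2*, near 0 in CA1, turned to -0.0099 with the GAPDH covariate and to -0.017 without T0 replicate 1, with a range of -0.17 to 0.29 when 1 array was left out. The medians of the mitosis, DNA replication, CA1, neurite growth and integrated stress response lists moved by less than 1.5 times when any of the 4 arrays was left out or a covariate was added. The causes were not tested.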
